A study of Mus musculus with 6 samples.

Results

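The FGF homologous factors are 4 of the 37991 genes in the deposited tables, Fgf11, Fgf12, Fgf13 and Fgf14, found there by gene symbol. RNA-seq of 6 embryos of the outbred CD1 mouse strain, labelled E13.5, measured them in the dorsal telencephalon, from which the neocortex develops. Into the ventricles of 3 embryos, numbered 6, 7 and 8, 100 ng of FGF2 had been injected. Another 3 embryos, numbered 7, 8 and 9, received the vehicle, PBS with 0.1% BSA. The labels name no genetic change, RNA came from formalin-fixed cryosections of regions in front of the hippocampus, and the labels do not give the time between injection and collection. The labels do not name litters, so p-values measure the spread between these 6 embryos.

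FGF homologous factors belong to the FGF family by sequence, but they lack the signal peptide of the secreted members and stay inside the cell. They bind the cytoplasmic tail of voltage-gated sodium channel alpha subunits and set how these channels inactivate and where they gather, above all at the axon initial segment of neurons. Each gene uses alternative first exons, which give proteins with different N-terminal ends. Fgf13 also binds microtubules and takes part in the migration of cortical neurons in mice, and mutations of human FGF14 cause a spinocerebellar ataxia.

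Total counts were 64631136 to 81532334 in the FGF2 embryos and 61489462 to 68101511 in the vehicle embryos. Vehicle 9 holds only even counts. Its genes with a count of 2 covered a median of 38 bases per count, against 67 to 72 in the other embryos. Reads are 76 bases long, so each alignment of vehicle 9 appears to be counted 2 times. Its totals and read numbers below therefore hold fewer separate reads than they state. Its counts halved gave the same calls for all 4 genes. Y-linked and Xist reads mark the FGF2 embryos and vehicle 7 as male and vehicle 8 and 9 as female, so sex and injection are partly confounded. FGF2 8 stood apart in a summed pan-neuronal level, of which Tubb3 and Elavl3 made up most (1030 and 750 CPM in FGF2 8). In FGF2 8 Elavl4, Nsg2 and Rbfox3 did not exceed the vehicle range, and the other genes of that list did. The summed level of 10 pan-neuronal genes was 3240 CPM in FGF2 8 and 1970 and 2050 CPM in FGF2 6 and 7, against 2170 to 2310 CPM in the vehicle embryos (CPM is a count relative to the library's total, scaled by edgeR's TMM factors).

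The 4 genes differ greatly in size, which bears on what a counted read is. Fgf11, on chromosome 11 (69609570 to 69615359, NCBIM37), spans 5.79 kb and overlaps no other listed gene. Fgf12, on chromosome 16 (28160206 to 28445313), spans 285.11 kb and overlaps none either. Fgf13, on chromosome X (56315322 to 56821248), spans 505.93 kb and holds Mir504, Gm14890 and 2 small RNA loci. The 3 to 63 reads counted over each of these can include reads of Fgf13 itself, also spliced reads that bridge them. Fgf14, on chromosome 14 (124377129 to 125076349), spans 699.22 kb and holds Gm15422 and Gm17615. Exons make up 52.6% of the span of Fgf11, 1.45% of Fgf12, 0.794% of Fgf13 and 0.598% of Fgf14, by the exon lengths of GENCODE M21. The longest run of bases shared by the transcripts of any 2 members was 28 (Fgf11 and Fgf12), against a read length of 76. Intronic sequence was not compared.

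The regions around 1 annotated start of each gene are given because Fgf12 and Fgf14 were higher in every FGF2 embryo than in any vehicle embryo by gene-span counts, while Fgf11 and Fgf13 were not. Each window runs from 250 bases before to 50 bases after a RefSeq start (GRCm38.p6, minus strand, 5′ to 3′), and where a gene has several windows the one nearest to an annotated GENCODE start was taken. Capitals mark the GC box GGGCGG, the TATA box TATAAA, the E-boxes CAGCTG and also CAGATG, the homeodomain core TAATTA and the CCAAT box, each searched on both strands.
Fgf11, chr11:69802231-69802530: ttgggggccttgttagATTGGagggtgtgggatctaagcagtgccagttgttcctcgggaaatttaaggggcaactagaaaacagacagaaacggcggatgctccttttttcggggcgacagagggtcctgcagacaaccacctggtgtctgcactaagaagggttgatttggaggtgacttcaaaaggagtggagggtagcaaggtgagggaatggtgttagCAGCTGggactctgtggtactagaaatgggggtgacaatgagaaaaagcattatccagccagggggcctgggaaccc
Fgf12, chr16:28446026-28446325: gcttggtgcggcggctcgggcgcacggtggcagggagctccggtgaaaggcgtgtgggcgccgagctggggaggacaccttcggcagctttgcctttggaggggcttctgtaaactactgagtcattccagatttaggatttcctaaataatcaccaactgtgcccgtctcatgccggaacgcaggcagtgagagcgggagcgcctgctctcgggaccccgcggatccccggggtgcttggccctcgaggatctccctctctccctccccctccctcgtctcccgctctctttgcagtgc
Fgf13, chrX:59134387-59134686: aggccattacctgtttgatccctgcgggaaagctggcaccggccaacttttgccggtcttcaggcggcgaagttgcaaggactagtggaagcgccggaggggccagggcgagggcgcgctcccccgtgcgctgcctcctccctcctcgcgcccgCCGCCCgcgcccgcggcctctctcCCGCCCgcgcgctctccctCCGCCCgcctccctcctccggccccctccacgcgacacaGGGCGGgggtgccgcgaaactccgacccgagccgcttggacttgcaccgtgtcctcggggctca
Fgf14, chr14:124192497-124192796: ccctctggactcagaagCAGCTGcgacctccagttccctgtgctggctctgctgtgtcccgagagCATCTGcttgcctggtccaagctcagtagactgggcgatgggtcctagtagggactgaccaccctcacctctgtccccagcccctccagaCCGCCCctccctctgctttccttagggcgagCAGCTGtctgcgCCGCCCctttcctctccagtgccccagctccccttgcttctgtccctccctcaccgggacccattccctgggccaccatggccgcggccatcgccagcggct
The Fgf14 window held CAGCTG 2 times, CAGATG 1 time and GGGCGG 2 times. CAGCTG, an E-box of the kind that proneural factors bind, occurs in 16.3% of all 32851 RefSeq windows, CAGATG in 17.2% and GGGCGG in 35.7%. Fgf11 held 1 CAGCTG and 1 CCAAT, which 37.4% of windows hold, and Fgf13 held 4 GGGCGG. None of the 6 motifs was in the printed Fgf12 window, which, like any such absence, says only that these letters are not there. Fgf12 has 4 windows, and windows 1, 2 and 3, which are not printed, each held GGGCGG 2 times, window 1 also CCAAT 2 times. TATAAA (13.6% of windows) and TAATTA (5.29%) were in none of the 4 printed windows. Fgf13 also has 4 windows, and its window 3, not printed, held TATAAA 1 time. By base composition the windows of Fgf11, Fgf14, Fgf12 and Fgf13 held 52.3%, 65.7%, 63.7% and 73% G or C and 5, 12, 22 and 37 CG dinucleotides, where the median over all windows was 52.7% and 7.

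Levels were compared between the genes on the deposited RPKM, which are per length of the exons. Fgf13, the microtubule-binding member, was the most abundant, at 8.05 ± 0.574 RPKM in FGF2 embryos and 8.62 ± 0.297 RPKM in vehicle embryos (SD, n = 3 each, as throughout). Fgf11, the member with the shortest gene, followed at 3.97 ± 1.66 and 3.02 ± 0.361 RPKM. Fgf12, a sodium channel modulator of neurons and heart, was at 1.42 ± 0.386 RPKM in FGF2 embryos and 0.938 ± 0.227 RPKM in vehicle embryos. Fgf14, a sodium channel partner at the axon initial segment, was at 1.17 ± 0.223 and 0.376 ± 0.022 RPKM. In the vehicle embryos no neighbours in this order overlapped. In the FGF2 embryos Fgf12 and Fgf14 overlapped, so their order there does not exceed their spread. Averaged over 6 embryos, Fgf13 stood above 73.2%, Fgf11 above 58.9%, Fgf12 above 46.7% and Fgf14 above 42.7% of the 25180 genes detected by RPKM.

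**Figure D1:**
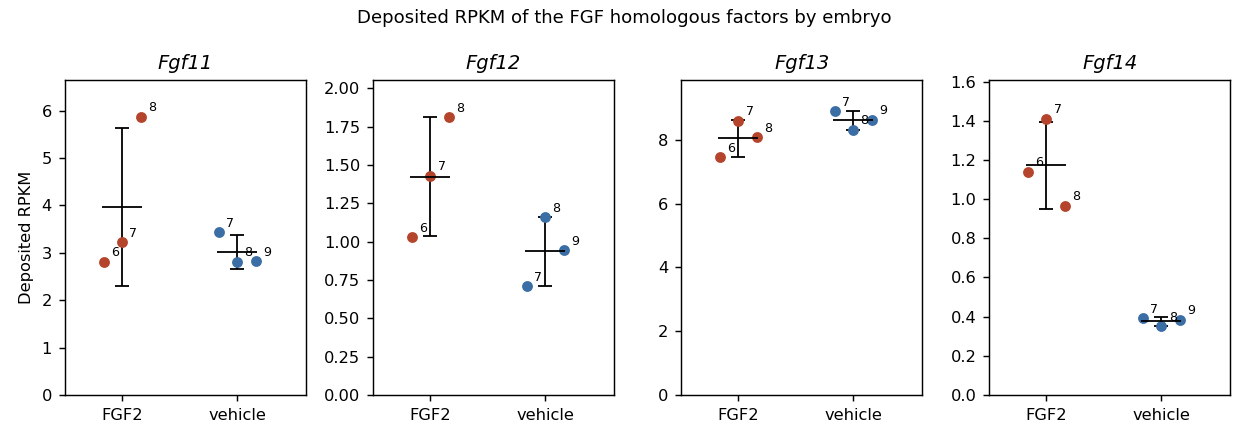
Deposited RPKM (vertical axis, linear from 0, each gene with its own range) of Fgf11, Fgf12, Fgf13 and Fgf14 in FGF2 and vehicle embryos. Points are embryos with their numbers, the bar and whiskers are the mean ± SD (n = 3), and the 3 FGF2 embryos of Fgf14 sit between 0.966 and 1.41 RPKM, all above the vehicle embryos at 0.351 to 0.392.

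Over gene-span counts, none of the 4 genes passed the test of FGF2 against vehicle with edgeR (quasi-likelihood test, Benjamini-Hochberg adjustment over 21983 genes), where 3.63% of all genes tested were called. Without adjustment, 2 of them, Fgf12 and Fgf14, had p under 0.05, as had 19.3% of all genes tested. DESeq2 on the same counts called Fgf14 and no other member, and 6.11% of all genes rose there. In the deposited RPKM, which rest on exons, Fgf14 had 3.11 times the vehicle level in FGF2 embryos and rose in the limma fit without a minimum level. The planned limma fit left it out. The median log2 fold change of the 4 genes was 0.47, beside 0.01 over all genes tested. In CPM, 2 of the 4, Fgf12 and Fgf14, had every FGF2 embryo above every vehicle embryo, as had 14.6% of all genes tested. In bulk tissue, fewer cells of a type and less RNA per cell cannot be told apart.

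Fgf14 had 1766, 1193 and 2151 reads in FGF2 6, 7 and 8, against 815, 956 and 682 reads in vehicle 7, 8 and 9. Scaled, these were 21, 16.8 and 33.4 CPM in FGF2 embryos and 13.3, 14.3 and 10.8 CPM in vehicle embryos. All 3 FGF2 embryos lay above the vehicle embryos, with FGF2 8 highest. The log2 fold change was 0.89 ± 0.25 (SE), a fold of 1.85, at an edgeR adjusted p of 0.105 (unadjusted p = 0.00759), so it did not pass. With DESeq2 the same counts gave 0.88 at an adjusted p of 0.00848, where DESeq2 called 9.76% of the genes tested. With 3 embryos against 3, an exact permutation test cannot go below 0.1.

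In RPKM the separation of Fgf14 was wider. Its values were 1.14, 1.41 and 0.966 RPKM in FGF2 6, 7 and 8, and 0.392, 0.351 and 0.385 RPKM in vehicle 7, 8 and 9. No FGF2 embryo overlapped the vehicle embryos, as for 15.3% of the 25180 genes detected. The lowest FGF2 embryo was FGF2 8, the one with the most span reads, and the ratio of the group means was 3.11 (exact permutation test, two-sided p = 0.1, the smallest possible). Only FGF2 6 and 7 reached 1 RPKM, so the gene was left out of the planned limma fit, which asked for 1 RPKM in 3 embryos. Without a filter, limma on log2(RPKM + 1) gave a log2 difference of 0.65 ± 0.09 (SE, adjusted p = 0.0381 over 25180 genes, of which 1.08% were called and 0.909% rose). On log2(RPKM + 0.1) with a minimum of 0.3 RPKM in 3 embryos, a setting chosen after the values were seen, it was 1.40 ± 0.20 (SE, adjusted p = 0.0145, where 3.17% of 16550 genes were called and 2.49% rose). Both differences understate a low gene, since a constant is added before the log.

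The RPKM call of Fgf14 was lost when most single embryos were left out, while its size moved by less than 1.5 times. Leaving out single embryos gave log2 differences of 0.58 to 0.72 with RPKM + 1, and the limma call held without FGF2 8 (adjusted p = 0.021) and was lost without any other embryo (0.0752 to 0.196). With RPKM + 0.1 the differences were 1.27 to 1.52, and the call again held without FGF2 8 alone (0.0135, against 0.0542 to 0.0745). With embryo sex as a covariate the differences were 0.64 and 1.35, at adjusted p of 0.372 and 0.25. In span counts the log2 fold change was 0.83 in male embryos alone, 3 FGF2 embryos against vehicle 7, at an edgeR adjusted p of 0.779, and 0.56 without FGF2 8 (adjusted p = 0.0564), against 0.89 with all embryos.

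The counts of Fgf14 take in its whole span and its RPKM rest on exons, so the exonic part of its reads was estimated. Across 8465 to 8966 genes per library that overlap no other span, the count divided by the RPKM gave back the annotated exon length to a median factor of 0.99 to 1.02, so RPKM times exon length times the total count estimates the exonic reads. The factor's 90th percentile was 1.38 to 1.53, and the gene model behind the RPKM is not stated, so the split of a single gene is approximate. For Fgf14 this gave 388, 411 and 261 exonic reads in FGF2 embryos and 101, 100 and 103 in vehicle embryos. They were 22%, 34.5% and 12.1% of its counted reads in FGF2 embryos and 12.4%, 10.5% and 15.2% in vehicle embryos. This restates the RPKM as reads. In CPM by the unscaled totals, the exonic part was 4.89 ± 0.932 in FGF2 embryos and 1.57 ± 0.0919 in vehicle embryos. The remainder was 16.9, 11.2 and 29.2 CPM in FGF2 embryos, against 11.6, 12.6 and 9.01 in vehicle embryos. In the remainder the groups overlapped, since FGF2 7 lay below vehicle 7 and 8 (ratio of means 1.73, exact permutation test, two-sided p = 0.3). The nested Gm15422 and Gm17615 counted 58 to 93 and 131 to 241 reads in FGF2 embryos and 37 to 60 and 110 to 145 in vehicle embryos. These can include reads of Fgf14 itself.

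**Figure D2:**
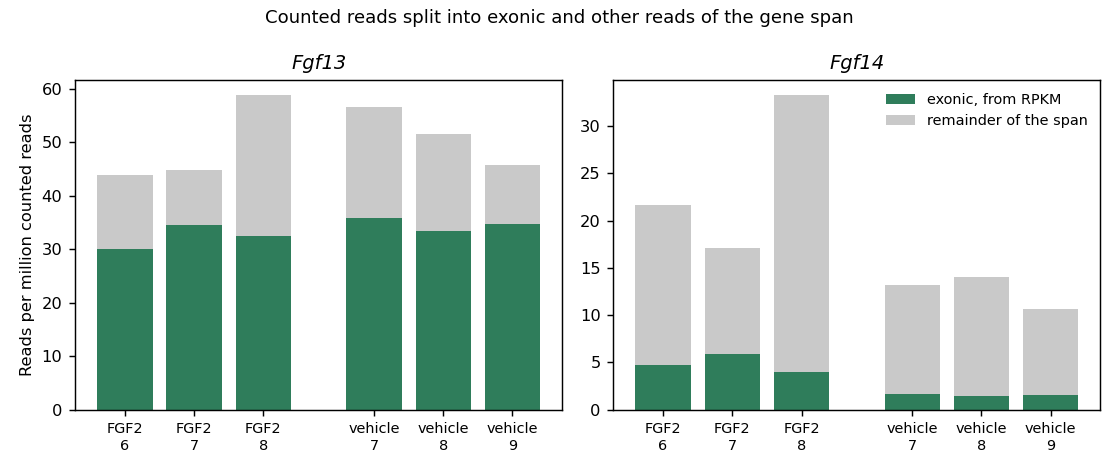
CPM by unscaled totals (vertical axis, linear from 0) of Fgf13 and Fgf14 in each embryo, split into an exonic part estimated from RPKM (green) and the remainder of the gene span (grey). For Fgf14 the green part is 4.04 to 5.89 in FGF2 embryos and 1.47 to 1.64 in vehicle embryos, while the grey part overlaps between the groups, and for Fgf13 both parts overlap.

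The covered bases of the Fgf14 span depend on the number of reads and on where they lie, introns included. Per counted read they were 0.037 kb in vehicle 7 and 0.115 to 0.239 kb in the other embryos. The highest value is that of vehicle 9, where every count is even. A base counts as covered when it lies anywhere between the ends of an alignment, introns bridged by a spliced read included, since 216 to 521 reads of 76 bases covered over 284 kb of Fgf12. Of the 699.22 kb of Fgf14, 239.96, 173.87 and 247.96 kb were covered in FGF2 6, 7 and 8, and 29.99, 177.14 and 162.84 kb in vehicle 7, 8 and 9. GENCODE M21 places an inner start of Fgf14 215 kb and an outer start 699.2 kb from the 3′ end of the gene, and the promoter window printed for Fgf14 was 356 bases from the inner one. In no embryo was more than 35.5% of the span covered, whereas 96.99% to 100% of the spans of Fgf11, Fgf12 and Fgf13 were covered in every embryo. Reads are not assigned to single transcripts, so the covered bases do not show which start was used.

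Fgf12 had 383, 375 and 521 reads in FGF2 6, 7 and 8, against 216, 278 and 236 in vehicle 7, 8 and 9. These were 4.55, 5.29 and 8.1 CPM in FGF2 embryos and 3.53, 4.16 and 3.75 CPM in vehicle embryos, without overlap. The log2 fold change was 0.65 ± 0.24 (SE), a fold of 1.57, at an edgeR adjusted p of 0.191. In RPKM the groups did overlap, with 1.03, 1.43 and 1.81 RPKM in FGF2 embryos and 0.708, 1.16 and 0.944 RPKM in vehicle embryos, since vehicle 8 lay above FGF2 6. The limma difference on log2(RPKM + 1) was 0.32 ± 0.15 (SE, adjusted p = 0.296, where 3.11% of 13894 genes were called). Exonic reads estimated from RPKM were 91% to 110% of its counted reads in FGF2 embryos and 83.4% to 118% in vehicle embryos. That exon length comes from 1 of the 3 transcripts listed for Fgf12, and GENCODE M21 also holds a start 593 kb from the 3′ end, beyond the counted span. Without FGF2 8 its log2 fold change in span counts was 0.37, against 0.65 with all embryos.

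Fgf13 had 3586, 3129 and 3800 reads in FGF2 6, 7 and 8, against 3488, 3517 and 2942 in vehicle 7, 8 and 9, the most of the 4 genes. In CPM it was at 42.6, 44.1 and 59.1 in FGF2 embryos and 57.1, 52.6 and 46.7 in vehicle embryos, so FGF2 8 was above and FGF2 6 and 7 below every vehicle embryo. The log2 fold change was -0.10 ± 0.14 (SE, edgeR adjusted p = 0.74). In RPKM the 6 embryos lay between 7.46 and 8.91, with a coefficient of variation of 7.13% in FGF2 embryos and 3.44% in vehicle embryos, and the limma difference was -0.09 ± 0.08 (SE, adjusted p = 0.572). Its estimated exonic part was 32.4 ± 2.31 CPM by unscaled totals in FGF2 embryos and 34.7 ± 1.19 in vehicle embryos, and the remainder 16.8 ± 8.4 and 16.7 ± 5.07. Fgf13 lies on the X chromosome, and the single male vehicle embryo, vehicle 7, had 57.1 CPM beside 52.6 and 46.7 CPM in the 2 females. With sex as a covariate its log2 fold change was -0.23 (edgeR adjusted p = 0.843).

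Fgf11 had 679, 689 and 1161 reads in FGF2 6, 7 and 8, against 645, 615 and 596 in vehicle 7, 8 and 9. In CPM these were 8.07, 9.71 and 18.1 in FGF2 embryos and 10.5, 9.2 and 9.46 in vehicle embryos, so FGF2 8 alone stood above the vehicle range. The log2 fold change was 0.29 ± 0.28 (SE, edgeR adjusted p = 0.62), and without FGF2 8 it was -0.13. In RPKM, too, FGF2 8 alone stood above the vehicle range, with 5.87 RPKM in FGF2 8 and 2.81 and 3.22 RPKM in FGF2 6 and 7, against 2.81 to 3.44 RPKM in vehicle embryos. Its exonic estimate was 92.5% to 103% of its counted reads over the 6 embryos. FGF2 8 is also the embryo with the highest pan-neuronal sum, and the part of that in the Fgf11 value was not tested.

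**Figure D3:**
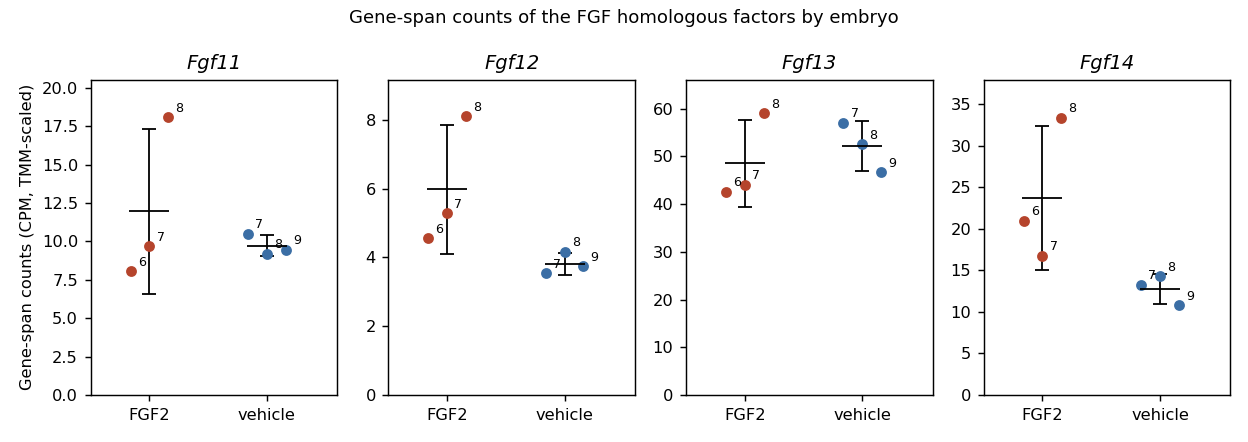
Gene-span counts of the 4 genes in CPM (vertical axis, linear from 0, each gene with its own range) for FGF2 and vehicle embryos, with embryo numbers beside the points and the mean ± SD (n = 3). FGF2 8 is the highest embryo in all 4 panels, and in Fgf12 and Fgf14 FGF2 6 and 7 also lie above every vehicle embryo.

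Ratios between 2 of these genes within an embryo do not depend on library scaling, and 6 pairs were compared. By counts, the log2 ratio of Fgf14 over Fgf13 was -1.02, -1.39 and -0.82 in FGF2 6, 7 and 8, and -2.1, -1.88 and -2.11 in vehicle 7, 8 and 9. The groups did not overlap and differed by 0.95 (exact permutation test, two-sided p = 0.1, adjusted 0.2 over 6 pairs). By RPKM this ratio was -2.80 ± 0.24 in FGF2 embryos and -4.52 ± 0.04 in vehicle embryos, a difference of 1.72 (exact p = 0.1, adjusted 0.3). Fgf12 over Fgf13 differed by 0.72 by counts without overlap (exact p = 0.1, adjusted 0.2) and by 0.69 by RPKM with overlap (exact p = 0.2, adjusted 0.3). Fgf14 over Fgf11 differed by 0.63 by counts and 1.3 by RPKM, in both without overlap (exact p = 0.1 each). The other 3 pairs overlapped in both units. Of the summed RPKM of the 4 genes, Fgf14 made up 8.17% in FGF2 embryos and 2.9% in vehicle embryos, and Fgf13 55.7% and 66.5%.

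**Figure D4:**
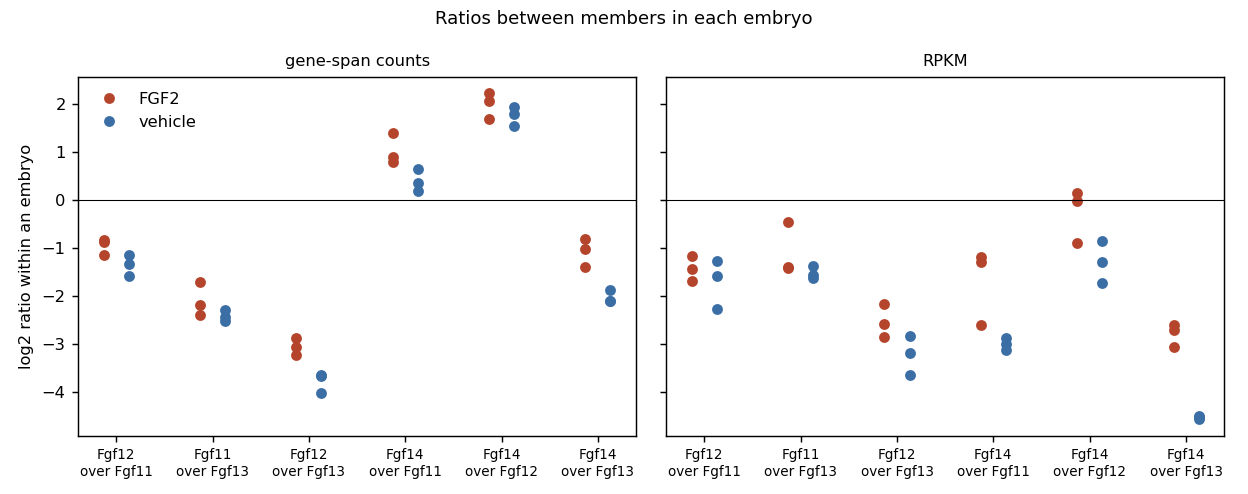
Log2 ratio of 2 members within each embryo (vertical axis) for the 6 pairs, by gene-span counts (left) and RPKM (right), with FGF2 embryos left of vehicle embryos in each pair. Fgf14 over Fgf13 and Fgf14 over Fgf11 do not overlap between the groups in either unit.

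The sodium channels that these proteins bind were described from a list of 10 alpha subunits, of which 8 were tested. Of these, 2 rose, 0 fell and 6 did not pass (edgeR, beside 2.68% of all genes tested that rose), with a median log2 fold change of 0.47. Scn9a, which encodes the channel Nav1.7 of peripheral sensory and some central neurons, had 461, 298 and 384 reads in FGF2 embryos and 62, 88 and 124 in vehicle embryos. It rose by 1.86 ± 0.28 (SE, edgeR adjusted p = 0.0151) over a span that overlaps 3 other listed genes, and it missed the threshold when either vehicle 7 or vehicle 8 was left out (highest adjusted p = 0.0907). Scn10a, of sensory neurons, had 21, 25 and 18 reads in FGF2 embryos and 2, 4 and 4 in vehicle embryos, and its rise (edgeR adjusted p = 0.0384) was kept only without FGF2 8 when embryos were left out singly. Scn10a passed the low-count filter only through the FGF2 embryos, so it could be called only as a rise. With embryo sex as a covariate neither Scn9a nor Scn10a passed (edgeR adjusted p = 0.133 and 0.334). Scn3a, the alpha subunit typical of embryonic brain, was at 43.8 ± 16.8 CPM in FGF2 embryos and 25.9 ± 2.5 CPM in vehicle embryos, and Scn2a1, of developing axons, at 9.6 ± 3.09 and 7.16 ± 0.382 CPM. Neither passed. For both, every FGF2 embryo lay above every vehicle embryo, as for 14.6% of all genes tested. FGF2 8 was highest for both, with FGF2 6, 7 and 8 at 40.4, 28.9 and 62 CPM for Scn3a. For Scn2a1 they were at 7.67, 7.96 and 13.2 CPM. Scn8a, the main alpha subunit of mature axon initial segments, was at 51.2 ± 16.9 and 47.5 ± 4.07 CPM.

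Of 4 auxiliary beta subunits 0 passed the edgeR test, and all 4 had a positive log2 fold change, of 0.32 to 0.52. An unadjusted edgeR p under 0.05 was reached by 2 of the beta subunits, beside 19.3% of all genes tested. DESeq2 called 0 of them, beside 9.76% of all genes tested. Scn3b, the most abundant of them by RPKM, was at 25.2 ± 8.03 CPM in FGF2 embryos and 17.6 ± 2.5 CPM in vehicle embryos (adjusted p = 0.25), and Scn2b at 5.76 ± 0.2 and 4.2 ± 0.705 CPM. Of 6 genes of the axon initial segment 0 passed, beside 3.63% of all genes, with a median of -0.04. None of the 6 had an unadjusted p under 0.05 or was called by DESeq2, but 3 were called without FGF2 8 and 2 by voom with sample quality weights. These 2 fits called 1943 of 22373 and 2259 of 21983 genes tested. Ank3, which encodes the ankyrin that anchors sodium channels there, was at 157 ± 57.2 CPM in FGF2 embryos and 141 ± 12.5 CPM in vehicle embryos. Mapk8ip2, which encodes the scaffold protein IB2 that binds FGF homologous factors, was at 82 ± 6.51 and 92.9 ± 4.4 CPM and did not pass. Mapk13, a p38 kinase recruited to that complex, rose by 1.67 ± 0.34 (SE, edgeR adjusted p = 0.0407), at 2.54 ± 0.834 against 0.795 ± 0.241 CPM. It missed the threshold when FGF2 7 or 1 of the vehicle embryos was left out (highest edgeR adjusted p = 0.172), and with embryo sex as a covariate (0.461). Among 10 genes of the neuronal microtubule and of migration, the other setting in which Fgf13 acts, 0 passed edgeR and DESeq2 called 0. Of these 10, 1 had an unadjusted edgeR p under 0.05, beside 19.3% of all genes tested. Dcx was at 271 ± 82.6 CPM in FGF2 embryos and 268 ± 18.3 CPM in vehicle embryos, and Tubb3 at 785 ± 210 and 693 ± 10.5 CPM.

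**Figure D5:**
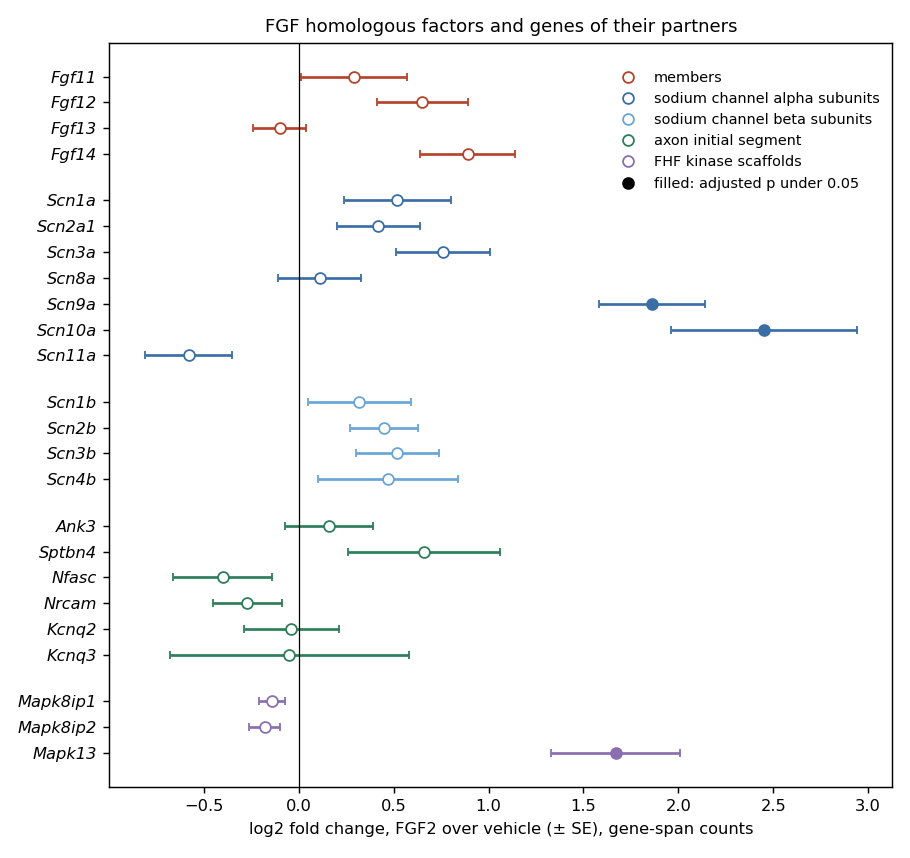
Log2 fold change of FGF2 over vehicle (horizontal axis, ± SE, gene-span counts) for the 4 FGF homologous factors and reported genes of sodium channel subunits, the axon initial segment and the IB2 complex. Filled points passed an edgeR adjusted p of 0.05, which in these lists were Scn9a, Scn10a and Mapk13.

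Secreted FGF ligands, the relatives of these genes that act on FGF receptors, included genes that passed. Of 14 tested ligands 4 rose and 0 fell, beside 2.68% and 0.951% of all genes tested, with Fgf15 at 55.7 ± 10.7 CPM in FGF2 embryos and 4.32 ± 1.35 CPM in vehicle embryos, where 0 of the 4 FGF homologous factors passed. Fgf3, Fgf15 and Fgf17 passed with any 1 embryo left out, and Fgf8 passed only with FGF2 8 left out. With embryo sex as a covariate none of these 4 ligands passed (edgeR adjusted p of 0.0585 for Fgf15 to 0.314 for Fgf8). That fit called 5 of 21983 genes. Fgf3 and Fgf8 passed the low-count filter only through the FGF2 embryos, where they are high. The difference between these 2 groups of genes was not tested. Of 5 FGF receptor genes 0 passed edgeR. Of these 5, 1 had an unadjusted edgeR p under 0.05, beside 19.3% of all genes tested. DESeq2 called 0 receptor genes, beside 9.76% of all genes tested.

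Markers of cell types moved with the same contrast, where 2.68% of all genes tested rose and 0.951% fell. Of 10 genes of GABAergic and ventral neurons 7 rose, and their summed level was 550 to 847 CPM in FGF2 embryos and 115 to 232 CPM in vehicle embryos. Of 10 genes of cortical projection neurons 0 passed edgeR and 10 had a negative log2 fold change, at a sum of 729, 815 and 1420 CPM in FGF2 6, 7 and 8 against 1580 to 1680 CPM in vehicle embryos. Of these 10, 7 had an unadjusted p under 0.05, DESeq2 called 4, voom with sample quality weights 9, and edgeR without FGF2 8 called 9. Over all genes tested, 19.3% had an unadjusted p under 0.05 and DESeq2 called 9.76%. Voom with sample quality weights called 2259 of 21983 genes, and edgeR without FGF2 8 called 1943 of 22373. Of 10 pan-neuronal genes 0 passed edgeR, but 6 had an unadjusted p under 0.05, DESeq2 and voom with sample quality weights called 3 each, and edgeR without FGF2 8 called 5. The directions of those 6 were mixed, with Syt1, Stmn2, Gap43 and Ina higher and Elavl4 and Rbfox3 lower in FGF2 embryos. Of 10 choroid plexus genes 7 rose and 1 fell, at a sum of 218 to 510 CPM in FGF2 embryos and 47.6 to 50 CPM in vehicle embryos. Of 10 diencephalon and midbrain genes 4 rose, at 621 to 785 and 523 to 629 CPM. Most of the latter sum was Lhx2, also a member of the dorsal pallium list, at 344 to 448 CPM in FGF2 and 442 to 541 CPM in vehicle embryos. This sum therefore says little of the other members, and 8 of the 10 had a positive log2 fold change (median 1.48). Otx2 is in both the choroid plexus and the diencephalon and midbrain list. Of 10 genes of the dorsal pallium 4 fell, at 1650 to 1690 CPM in FGF2 embryos and 2330 to 2510 CPM in vehicle embryos. Radial glia and meninges had 2 members each that fell, with 0 and 1 that rose, at sums of 2410 to 2940 and 2830 to 3190 CPM in FGF2 embryos and 2700 to 2950 and 4280 to 4830 CPM in vehicle embryos. Of 10 endothelial genes 1 rose, at 237 to 265 and 215 to 246 CPM. No marker in these lists was at 0 in all embryos. Ttr, Clic6, Folr1, Kcne2, Htr2c, Gbx2 and Slco1a4 passed the low-count filter only through the FGF2 embryos, where they are high. Of the calls in these lists, Isl1, Otx2, Clic6, Folr1, Col1a1, Emx1 and Eomes passed with any 1 embryo left out, and each of the others missed the threshold at least once. With embryo sex as a covariate only Isl1 and Clic6 of these calls passed (edgeR adjusted p = 0.00853 each). That fit called 5 of 21983 genes. With single embryos left out, GABAergic calls numbered from 2 (without vehicle 7) to 8, choroid plexus calls from 4 (without vehicle 7) to 8, and diencephalon and midbrain calls from 1 (without FGF2 8 or any vehicle embryo) to 5. Dorsal pallium calls numbered from 2 (without vehicle 7 or 8) to 7 (without FGF2 8). The part of these cell types in the values of Fgf12 and Fgf14 was not tested.

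Over the 6 embryos, the genes whose log2 CPM ran most like each member were named as a description, from 6192 or 6193 candidates with a mean of at least 5 CPM and no overlapping span. With 6 points, 18 to 61 candidates per member had a Pearson r above 0.95, and all points share library and treatment. For Fgf14 they were Cacng8, an AMPA receptor auxiliary subunit (r = 0.998), Gabrb2, a GABA receptor subunit (r = 0.995), and Srgap1 (r = 0.994). For Fgf12 they were Snrpn (r = 0.997), Pacsin1, a neuronal endocytic protein (r = 0.995), and Tram1l1 (r = 0.991). For Fgf13 they were Ube3a, a ubiquitin ligase of neurons (r = 0.988), and Lyrm4 (r = 0.98), and for Fgf11 they were Tmem35 (r = 0.987) and Fam5b (r = 0.986). Spearman's rho was 1 for each of these except Fam5b, at 0.83. Among the members, Fgf12 and Fgf14 ran together most closely (r = 0.92), and Fgf13 least with each of Fgf12 and Fgf14 (r = 0.26).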

How the data were processed

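Tools named in the submitters' processing notes, without roles, are bedtools 2.12.0, Bowtie2 2.1.0.0, TopHat2 2.0.9 and CASAVA 1.8, with build NCBIM37 (mm9). Use of strand is not stated. The deposited counts are whole alignments over each gene's span, introns included. Of the deposited columns, the covered fraction and covered bases were used to describe spans. The deposited RPKM are the authors' values per symbol, made with an unstated tool.

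Counts were tested with edgeR 4.0.16 (filterByExpr, TMM, robust quasi-likelihood test, no covariate) in R 4.3.3, and RPKM with limma 3.58.1. Called means an adjusted p under 0.05. DESeq2 1.42.0 was an alternative. The scripts were tested on simulated data. Exact permutation tests used SciPy 1.17.1. Symbols listed more than once were taken at the row with most reads, and older symbols through the gene ID. Named genes are the 4 members, 4 per list by smallest p (fewer are described here), a fixed set of 13 partner and marker genes and 3 genes of most like pattern per member, of which some are not reported here. The members and lists were chosen with earlier results of these data known. Same-numbered embryos were not paired by the labels.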

Additional observations from a re-analysis of the deposited data

How the results depend on the processing

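Over 20 and 19 alternatives on counts or RPKM, Fgf12 kept a positive log2 fold change (0.32 to 0.81) and Fgf13 a negative one (-0.27 to -0.02), with no call. In RPKM + 1, leaving out single embryos gave 0.20 (without FGF2 8) to 0.44 for Fgf12, with 0.23 without vehicle 7, and -0.13 to -0.04 for Fgf13. Fgf14 was higher in all 17 that kept it (0.56 to 1.08 in fits on counts) and passed in 2, DESeq2 (0.88) and log2(RPKM + 1) without a filter (0.65). Fgf11 reversed to -0.13 without FGF2 8 and to -0.07 with voom and sample quality weights. Leaving out single embryos gave -0.13 to 0.51 for Fgf11, in RPKM + 1 -0.00079 to 0.42, and in RPKM + 0.1 -0.0004 (without FGF2 8) to 0.52. For Fgf14 they gave 0.58 to 0.72 in RPKM + 1. In RPKM + 0.1 they gave 1.41, 1.27 and 1.52 without FGF2 6, 7 and 8, and 1.43, 1.36 and 1.42 without vehicle 7, 8 and 9, and embryo sex as a covariate gave 0.64 and 1.35 without a call. The cause of these losses was not tested.

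Called genes numbered 799, and 218 to 1943 without single embryos, 5 with sex as a covariate, 8 in males alone, 2145 with DESeq2, 2259 with voom weights, 432, 431 and 271 with log2(RPKM + 1), log2(RPKM + 0.1) and no RPKM filter, and 488 for genes overlapping no other span. Vehicle 9 halved gave 823. Of called genes 73.8% rose, but 49.6% without FGF2 8, 62.7% with DESeq2, 56.4% with voom weights, 84.5% without an RPKM filter, and 81.2% to 84.3% without any other embryo. The replicate block on the embryo number, which only 7 and 8 share, gave 703 called genes and log2 fold changes of 0.43, 0.77, -0.1 and 0.78 for Fgf11 to Fgf14, with no call. Same-numbered embryos did not deviate together (r of -0.038 and -0.03), so the number is not taken as a pairing. Of 320 counts of called list members under alternatives, 98 moved by more than 1.5 times. The replicate block moved the pan-neuronal, axon initial segment, projection neuron and radial glia counts to 3, 1, 1 and 0. About 100 exonic reads limit Fgf14 in each vehicle embryo, and fewer separate ones in vehicle 9, where every count is even.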
